A study of Homo sapiens with 21 samples.

Results

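The clustered protocadherins are 53 of the 19974 protein-coding genes on chromosomes 1 to 22 and X of the human RefSeq annotation. They were chosen by symbol and lie head to tail on chromosome 5 (hg38, chr5:140786140-141512975): 15 genes of the alpha cluster, 16 of the beta cluster and 22 of the gamma cluster. They encode cadherin-type adhesion proteins of the cell surface, best known from neurons, where each cell uses its own few isoforms and so carries an identity of its own. Every gene has its own promoter and its own large variable exon. The alpha genes share constant exons at the far end of their cluster, and so do the gamma genes, so members of a cluster share a gene end. In neurons the insulator protein CTCF and the cohesin complex bind a conserved element at most of these promoters and loop a chosen promoter to distant enhancers. The C-type genes PCDHAC2, PCDHGC4 and PCDHGC5 and the first beta gene, PCDHB1, are known to lack that element.

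The study used A375, 501mel, SKMEL-147 and SKMEL-5, which are 4 established lines of human melanoma, and the series concerns HOXD13 (silenced or overexpressed), a HOX protein known from limb development. Of 21 samples, 15 came with a list of enriched regions: CTCF in 501mel and SKMEL-5, ATAC (open chromatin) in all 4 lines, that of A375 being A375-GFP, K27ac, an acetylation of histone H3 found at active promoters and enhancers, in these 4 groups and in A375-shNTC (2 replicates), A375-shH2 and A375-shH3, and HA-tagged HOXD13 in A375. The other 6 samples, 5 of IgG and A375-GFP-HA, were not analysed here. Cells were grown for 72 h with or without doxycycline at 1 µg/ml, which switches on the hairpin or overexpression constructs, and which samples were given it is not labelled. The hairpins carry no target in the labels, and shNTC is read here as the non-targeting control. The word siNTC stands in the region names for 501mel ATAC without a counterpart in the label. Each group except A375-shNTC is 1 library, so counts of genes with a region are described and no test between lines or hairpins could be made. Nothing in the labels says that the 2 shNTC replicates came from separate cultures.

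The lists differed in size, from 39473 (501mel) to 51015 (SKMEL-5) CTCF regions, 56333 to 163102 ATAC regions, 42115 to 139985 K27ac regions and 29176 HOXD13-HA regions. Read depth is not known from such lists. The cell type was checked on fixed marker genes with a known start. All 5 melanocytic markers had K27ac at the promoter in 501mel and SKMEL-5, against 0 in SKMEL-147 and 1 in A375-GFP. Of 4 markers of undifferentiated melanoma, 4 had it in SKMEL-147, 3 in A375-GFP, 1 in SKMEL-5 and 0 in 501mel. Among 3 neuronal markers K27ac lay at 0 or 1 in every K27ac list. ATAC regions lay at 3 of them in 501mel and A375-GFP and at 2 in SKMEL-5 and SKMEL-147. CTCF lay at 1, RBFOX3, in both lines, and HOXD13-HA at 1, ELAVL4. The T cell markers (3) had no region in any of the 15 lists. K27ac lay at 0 of 1 fibroblast gene in every K27ac list and at 0 or 1 of 2 endothelial genes and of 2 keratinocyte genes. The fibroblast gene, PDGFRA, was open in all 4 lines and had CTCF in 501mel and SKMEL-5. Of the endothelial genes, 0, 1, 2 and 1 were open in 501mel, SKMEL-5, SKMEL-147 and A375-GFP, and of the keratinocyte genes 0 in each. The SKMEL-5 list had CTCF at 1 keratinocyte gene, SFN.

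The promoters differ in sequence between clusters, and stretches of 36 bases around the letters CGCTG are shown because these letters recur at most members with and without CTCF. They come from the RefSeq promoter table (GRCh38.p14, 250 bases before to 50 after each gene start), which holds 47 of the 53 members, all on the plus strand. Capitals mark CGCTG, letters chosen after the sequences were seen. PCDHA5 and PCDHA6 are alpha genes with and without CTCF, PCDHB10 and PCDHB16 are beta genes with and without it, PCDHGA7 is a gamma gene with CTCF in both lines, PCDHGB4 and PCDHGB5 had it in 501mel alone, and PCDHGC4 had no region in any list.
PCDHA5 (chr5:140821544-140821579): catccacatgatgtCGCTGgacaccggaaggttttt
PCDHA6 (chr5:140827899-140827934): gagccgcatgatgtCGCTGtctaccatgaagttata
PCDHB10 (chr5:141192301-141192336): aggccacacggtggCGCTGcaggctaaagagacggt
PCDHB16 (chr5:141182312-141182347): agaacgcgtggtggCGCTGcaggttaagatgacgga
PCDHGA7 (chr5:141382651-141382686): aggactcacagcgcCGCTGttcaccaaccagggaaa
PCDHGB4 (chr5:141387619-141387654): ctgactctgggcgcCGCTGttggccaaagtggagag
PCDHGB5 (chr5:141397865-141397900): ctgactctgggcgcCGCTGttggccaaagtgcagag
PCDHGC4 (chr5:141484954-141484989): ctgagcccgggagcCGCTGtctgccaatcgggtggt

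Strings with letters in front of the shared core each recurred within a single cluster, none of them at all its members. Some gamma members had TGT before the core, as alpha members did. On either strand, GATGTCGCT lay in the promoters of 9 of 13 alpha members and in 0.164% of all 15812 genes with a sequence. GGTGGCGCT lay in 13 of 14 beta members, all but PCDHB1, against 0.797% of all genes. GCGCCGCTG lay in 10 of 20 gamma members, against 2.28%. These 3 strings were also chosen after the sequences were seen, and all 3 overlap the shorter CGCTG or its first letters, which lay in 41 of 47 members and 64.1% of all genes. Of the strings fixed with the design, the beta string's looser form GGNGGCGCT lay in the same 13 beta members and in 6.15% of all genes, and GGCGCT, which is part of it, in 23 of 47 members and 33.1% of all genes. AGGGGGCGC and its first letters AGGGGGC, taken from the usual CTCF motif, lay in 0 members (3.15% and 21.7% of all genes), and the strings CCAATAAA and CTCGTAAA of posterior HOX proteins in 0 (1.01% and 0.171%). The promoters were poor in G and C, with medians of 37.3% in alpha, 40.9% in beta and 47.3% in gamma windows against 62.3% over all genes. The alpha C-type genes stood apart in their cluster, with 66.0% in PCDHAC1 and 63.0% in PCDHAC2.

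CTCF was listed at more protocadherin promoters in SKMEL-5 than in 501mel, and most of those of 501mel were among them. A promoter was counted when a region overlapped the 500 bases before to 500 after the gene start by at least 1 bp. In 501mel 17 of 53 members had CTCF (3 alpha, 4 beta, 10 gamma; 31.7% of all genes). In SKMEL-5 35 of 53 had it (11 alpha, 12 beta, 12 gamma; 37.0% of all genes). Against the 2304 genes whose promoter holds under 50% G and C, a class chosen after the counts were seen, it was 12 of 38 such members (9.59% of that class) in 501mel and 28 of 38 (13.0%) in SKMEL-5. The 501mel share was thus near that of all genes and above that of genes of like composition, and the SKMEL-5 share was above both. Both lines shared 13 members (27.3% of all genes), and 26 had CTCF in 1 line alone (14.1% of all genes). Of these 26, 22 were in SKMEL-5 and 4 in 501mel, namely PCDHB3, PCDHGB4, PCDHGA8 and PCDHGB5. Over all genes, 5859 had CTCF in SKMEL-5, 5010 in 501mel and 4320 in both. More genes thus had it in SKMEL-5 alone than in 501mel alone in general. The 501mel promoters were thus mainly those of the gamma cluster, while in SKMEL-5 the alpha and beta clusters held 23 of 35.

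**Figure D1:**
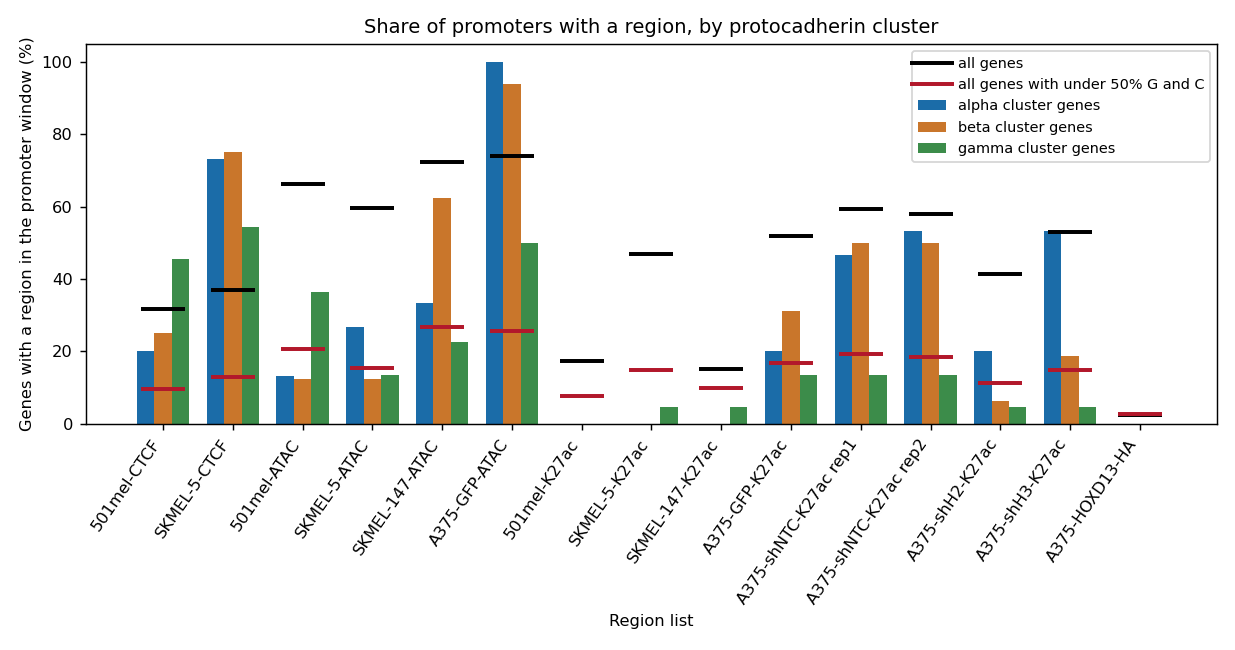
Share of genes with a region in the promoter window (y axis, %, from 0) in each of the 15 lists (x axis), with bars for the alpha (15), beta (16) and gamma (22) genes, black marks for all genes and red marks for all genes whose promoter holds under 50% G and C. CTCF in SKMEL-5 and ATAC in A375-GFP stand above both marks in the alpha and beta clusters, and K27ac in 501mel, SKMEL-5 and SKMEL-147 lies at 0 or 1 gene.

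The strength of the regions moved with the line. The fold of a region's summit over the caller's background, a value of the authors used within a list, had a median of 11.9 over the SKMEL-5 members against 9.24 over all genes with CTCF there. In 501mel the medians were 7.76 and 8.80. The strongest promoters in SKMEL-5 were PCDHA3 (fold 26.4), PCDHA2 and PCDHA9 (both 23.0), PCDHB10 (19.7) and PCDHGA2 (19.1). Of these 5, PCDHB10 (8.54) and PCDHGA2 (5.45) were listed in 501mel, and the 3 alpha genes were not within the promoter window. The strongest in 501mel were PCDHGB2 (11.6), PCDHGA8 (10.9), PCDHA8 (10.8), PCDHGA7 (10.1) and PCDHA4 (9.55). Of these, PCDHGA8 had no region in SKMEL-5, and the other 4 had folds of 8.03, 8.66, 11.9 and 17.4 there. The same was seen against genes of like strength. Among promoters with a −log10 q of 20 or more in SKMEL-5, 6 of 18 members also had CTCF in 501mel, against 90.6% of 2371 genes. Between 10 and 20 it was 5 of 11 against 76.1%, and under 10 it was 2 of 6 against 52.7%. These classes were chosen after the counts were seen. In the other direction, 8 of 10 members with a −log10 q under 10 in 501mel also had CTCF in SKMEL-5, against 73.6%, and 4 of 6 between 10 and 20, against 90.1%.

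CTCF lay elsewhere in the locus in both lines, so 501mel was not without CTCF there. The promoter of TAF7, a gene between the beta and gamma clusters that encodes a subunit of the general transcription factor TFIID, had folds of 19.4 in 501mel and 31.2 in SKMEL-5. A site without a gene at chr5:141325905-141326684 had folds of 10.9 and 24.2. In 501mel a region at chr5:141494773-141496404, between the last gamma promoter and the shared end of the cluster, had a fold of 17.8, and SKMEL-5 listed no CTCF there. In both lines the neighbours HARS1 and HARS2, which encode histidyl-tRNA synthetases, and DIAPH1, a formin, had CTCF at the promoter. Whether the copy number of single promoters differed between the lines was not tested.

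Among the 14 members without CTCF in either line were PCDHAC1, PCDHAC2, PCDHB1, PCDHGC3, PCDHGC4 and PCDHGC5, which are the 5 C-type genes and PCDHB1. The other 8 included members with the usual letters. Of the 9 alpha members with GATGTCGCT, 7 had CTCF in a line, and PCDHA6 and PCDHA12 did not. Of the 13 beta members with GGTGGCGCT, 12 had it, and PCDHB16 did not. Of the 10 gamma members with GCGCCGCTG, 8 had it. Without the string of their cluster, it was 2 of 4 alpha, 0 of 1 beta and 6 of 10 gamma members with a sequence. The gamma counts with and without the string were thus close. Over all genes, 6549 of 15818 had CTCF in either line. The letters did not sort the lines, since 3 of the 9 alpha members with the string had CTCF in 501mel and 7 in SKMEL-5, and 4 and 11 of the 13 beta members. PCDHGB4 and PCDHGB5, printed above, shared a run of 78 identical bases, the longest between any 2 member promoters (median of the longest runs 18.0, lowest 9), and both had CTCF in 501mel (folds 9.03 and 6.22) and none in SKMEL-5. The aligner's handling of reads from such repeats is not given in the sources used here, and its part in these counts was not tested.

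**Figure D2:**
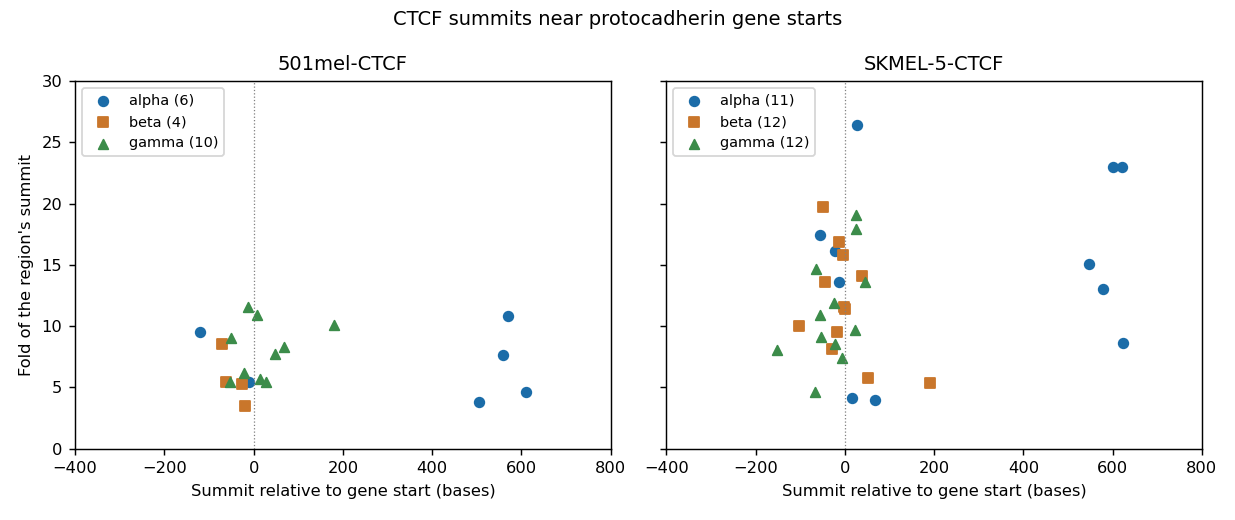
Position of each CTCF summit relative to the nearest protocadherin gene start (x axis, bases; positive values lie downstream) and the fold of its region (y axis), for 501mel (left) and SKMEL-5 (right), with the alpha, beta and gamma clusters in blue circles, orange squares and green triangles. Beta and gamma summits gather at the start, and alpha summits fall into one group at the start and another about 600 bases downstream.

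The position of the CTCF summit differed between clusters in the same way in both lines. In SKMEL-5 all 12 beta and all 12 gamma summits lay within 300 bases of a gene start, with median positions of −9.00 and −23.0 bases. Of the 11 alpha summits, 6 lay within 300 bases. The other 5, at PCDHA2, PCDHA7, PCDHA8, PCDHA9 and PCDHA13, lay 548 to 624 bases after the start. The SKMEL-5 regions of PCDHA2, PCDHA3, PCDHA4, PCDHA5, PCDHA7, PCDHA8, PCDHA11 and PCDHA13 were 937 to 1317 bases wide. Each covered both the start and the stretch 548 to 624 bases after it. Their summits mark only the highest point, so they do not place CTCF at the start or downstream alone. The regions of PCDHA1, PCDHA9 and PCDHA10, 212, 517 and 237 bases wide, did not cover both. In 501mel all 4 beta and 10 gamma summits lay within 300 bases, and 4 of 6 alpha summits lay 506 to 610 bases downstream. These were at PCDHA2, PCDHA4, PCDHA7 and PCDHA8. The 501mel region of PCDHA8, 939 bases wide, also covered both places. A CTCF site within the variable exon, besides that at the promoter, is known for the alpha genes. PCDHA4 had separate regions at both places in 501mel, with summits at −121 (fold 9.55) and 559 bases (fold 7.63) from the start. The 501mel regions of PCDHA2 (fold 4.67) and PCDHA7 (fold 3.83) began 69 and 2 bases beyond the promoter window and were not counted there. Over all genes 51.7% (501mel) and 51.4% (SKMEL-5) of the summits within 2500 bases of a start lay within 300 bases, against 16 of 20 and 30 of 35 at members.

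Open chromatin at the promoters was widespread in A375-GFP and sparse in 501mel and SKMEL-5. ATAC regions lay at 12 of 53 members in 501mel (66.3% of all genes), 9 in SKMEL-5 (59.6%), 20 in SKMEL-147 (72.4%) and, the most, 41 in A375-GFP (73.9%). In A375-GFP this took in all 15 alpha members and 15 of 16 beta members, but 11 of 22 gamma members. The SKMEL-147 regions lay at 10 of 16 beta members, and those of 501mel at 8 of 22 gamma members. With every ATAC list held to the length of the shortest, 501mel had 3 (all gamma), SKMEL-5 9, SKMEL-147 6 (1 of them beta, PCDHB14) and A375-GFP 29. The beta count in SKMEL-147 and its place above SKMEL-5 thus did not hold at that length. The share of all genes open at that length is not given, so whether members fell more than other genes was not tested. At least 1 line was open at 45 members (78.5% of all genes), and all 4 lines at 1 member (56.0% of all genes), PCDHAC1. Open in 1 line and in 2 lines were 18 members each, counts for which the share of all genes is not given. Promoters of like composition gave another background: among the 2304 genes with under 50% G and C, 20.7%, 15.5%, 26.8% and 25.6% were open in these 4 lines. The 38 members of that class had 7, 6, 15 and 30. Against that background the members stood near it in 501mel and SKMEL-5 and above it in SKMEL-147 and A375-GFP. In the same class, 33 of 38 members were open in at least 1 line, against 34.5%, and 0 of 38 in all 4 lines, against 12.2%.

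PCDHAC1, a C-type alpha gene, was listed with ATAC folds of 7.49 in 501mel, 10.6 in SKMEL-5, 22.9 in SKMEL-147 and 14.5 in A375-GFP. PCDHAC2 had 4.14 in SKMEL-5, 19.1 in SKMEL-147 and 14.0 in A375-GFP, and none in 501mel. PCDHGC3, a C-type gamma gene, had 24.4 in SKMEL-147 and 10.0 in A375-GFP. These C-type genes had no CTCF in either line profiled for it. PCDHGC4 and PCDHGC5 had no region in the promoter window in any of the 15 lists, like PCDHGA4 and PCDHGA11, a pair named after their values were seen. For PCDHGC5, which has no promoter entry, the lower gene end stood for the start. An A375-GFP K27ac region (fold 3.91) ended 361 bases before its window, and a window of 1000 bases to either side counted it as acetylated. Open in 3 lines were PCDHA7, PCDHB2, PCDHB12, PCDHGB2, PCDHGA7, PCDHGA10 and PCDHGA12, beside PCDHAC2. The highest ATAC fold in A375-GFP was 18.0, at PCDHGA7, followed by PCDHB2 (15.9), PCDHA5 and PCDHA9 (both 14.8) and PCDHB5 (14.7). The highest in SKMEL-147 was 29.2, at PCDHB14, where A375-GFP had 12.9 and the other 2 lines none.

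**Figure D3:**
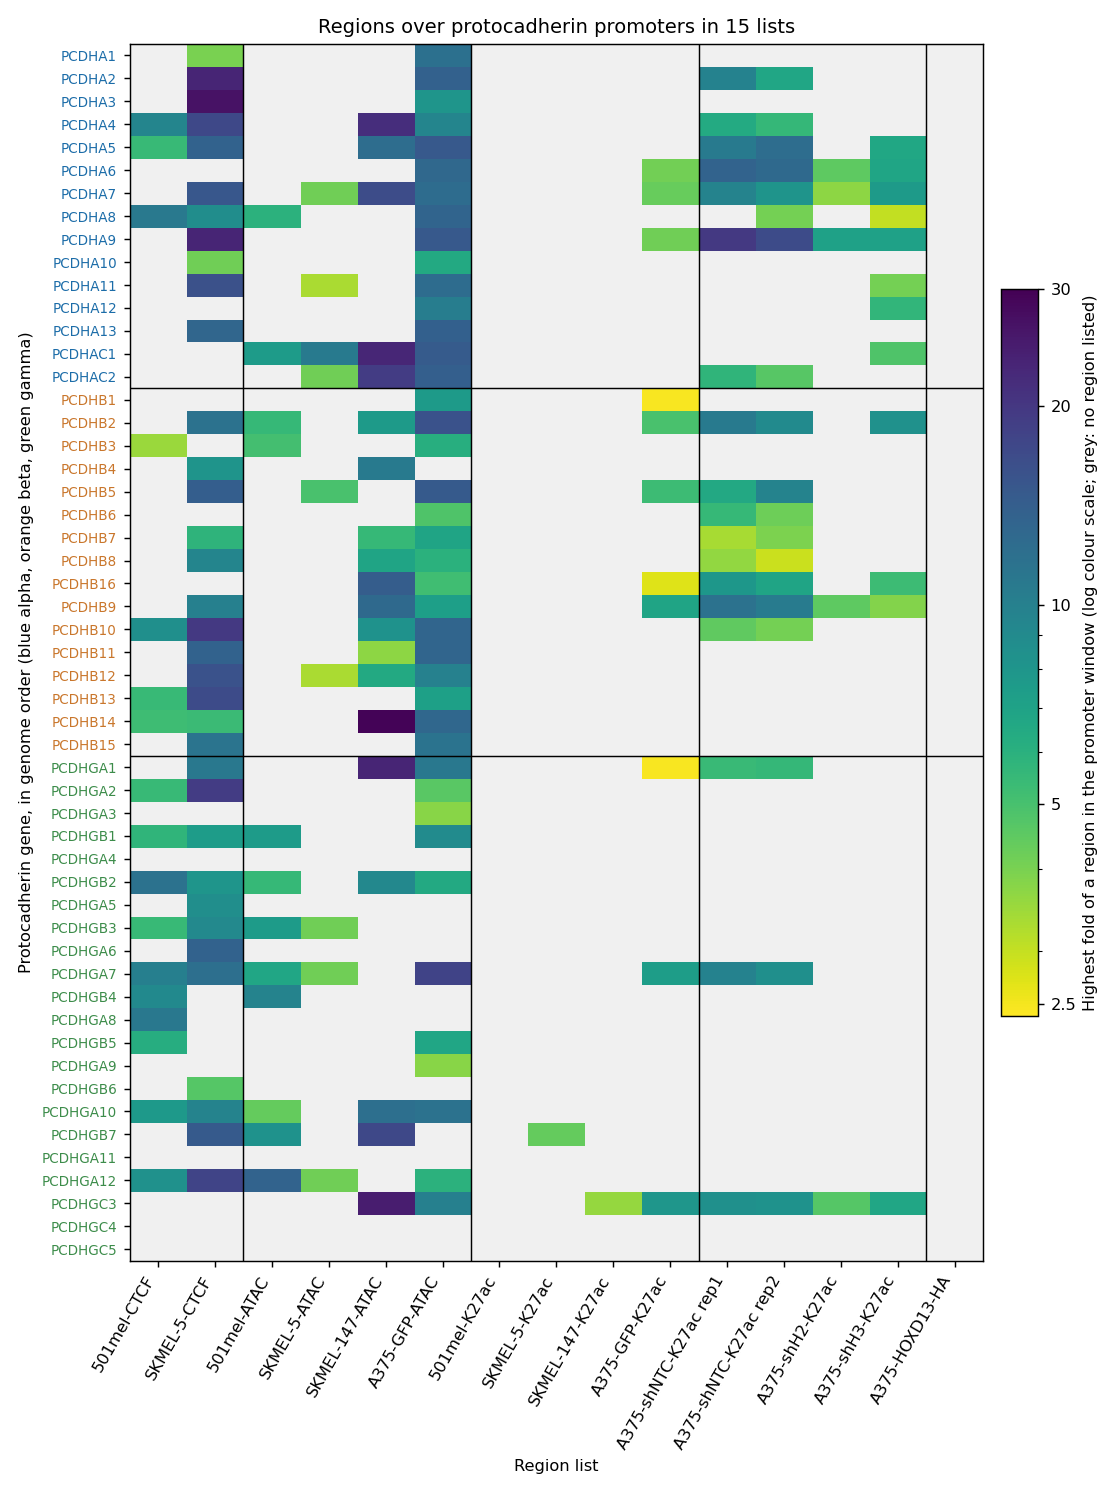
Highest fold of a region in the promoter window (colour, log scale; grey where no region was listed) for the 53 protocadherin genes in genome order (rows) in the 15 lists (columns). The A375-GFP ATAC column is filled over the alpha and beta clusters, the 501mel and SKMEL-5 CTCF columns share 13 rows, and the rows of PCDHGC4 and PCDHGC5 are empty.

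At protocadherin promoters CTCF often came without a listed open region. Of the 17 members with CTCF in 501mel, 9 were open in that line, against 98.8% of all genes with CTCF there. In SKMEL-5 it was 7 of 35 against 92.2%. PCDHA3, with the highest CTCF fold of all members in SKMEL-5, had no ATAC region in that line. Among the strongest CTCF promoters, with a −log10 q of 20 or more in SKMEL-5, 5 of 18 members were open against 93.7% of all genes. Among genes with under 50% G and C the shares were 5 of 12 members against 91.0% in 501mel and 6 of 28 against 73.6% in SKMEL-5. Of the 39 members with CTCF in either line, 31 were open in A375-GFP (97.4% of all such genes), a line in which CTCF was not profiled. Among genes with under 50% G and C it was 24 of 30 members against 84.5%, so the members stood near that class. The ATAC regions at members were weak in SKMEL-5, with a median fold of 4.14 against 8.34 over all genes.

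Acetylation at the promoters was listed mainly in A375. K27ac lay at 0 of 53 members in 501mel (17.4% of all genes), 1 in SKMEL-5 (47.0%) and 1 in SKMEL-147 (15.0%). It lay at 11 in A375-GFP (51.8%), or 12 in at least 1 line (59.9%). The 1 member in SKMEL-5 was PCDHGB7 (fold 4.37), and the 1 in SKMEL-147 was PCDHGC3 (3.58). The 11 in A375-GFP were PCDHGC3 (7.98), PCDHGA7 (7.38), PCDHB9 (6.88), PCDHB5 (5.30), PCDHB2 (4.98), PCDHA7 (4.33), PCDHA9 (4.16), PCDHA6 (4.12), PCDHB16 (2.72), PCDHB1 and PCDHGA1 (both 2.46). Among genes with under 50% G and C, 10 of 38 members had K27ac in A375-GFP against 16.9% of that class, and 0, 1 and 0 of 38 in 501mel, SKMEL-5 and SKMEL-147 against 7.68%, 14.9% and 9.90%. The A375-GFP share was thus below that of all genes and above that of genes of like composition. PCDHGC3 was acetylated in 2 lines, and no other member in more than 1. The A375-GFP list was the longest of the K27ac lists, and the low shares over all genes in 501mel and SKMEL-147 limit what a missing region there shows. The neighbours had K27ac at 0 of 5 promoters in 501mel, 4 in SKMEL-5, 3 in SKMEL-147 and 5 in A375-GFP.

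Few of the open members were acetylated. Of these, 0 of 12 in 501mel (25.4% of all open genes), 0 of 9 in SKMEL-5 (72.4%), 1 of 20 in SKMEL-147 (20.2%) and 11 of 41 in A375-GFP (68.0%) had K27ac. In A375-GFP 12 of the 15 open alpha members had no K27ac region, PCDHA5 with an ATAC fold of 14.8 among them. At an ATAC −log10 q of 20 or more it was 10 of 29 members against 73.1% of all genes, and from 10 to 20 it was 1 of 9 against 26.0%. Among genes with under 50% G and C it was 10 of 30 members against 55.5%.

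In the A375 hairpin libraries, K27ac regions were listed at fewer protocadherin promoters in total than in the shNTC libraries. The shNTC replicates held 18 (59.4% of all genes) and 19 (58.0%) members, with 18 in both (57.1%). The shH2 library held 5 (41.4%) and shH3 12 (53.1%). By cluster, the replicates held 7 and 8 alpha, 8 and 8 beta, and 3 and 3 gamma members. In shH2 it was 3 alpha, 1 beta and 1 gamma member, and in shH3 8, 3 and 1. The alpha count in shH3 was thus not lower than in shNTC. Of the 38 members with under 50% G and C, the replicates held 15 and 16, above the 19.2% and 18.4% of that class, shH2 held 4 (11.2%) and shH3 10 (14.9%). Of the 18 members in both replicates, shH2 listed 5 (72.0% of all such genes) and shH3 8 (90.0%), and 10 were in neither (8.94%). In the class with under 50% G and C it was 8 of 15 in neither, against 17.6%. Those 10 were PCDHA2, PCDHA4, PCDHAC2, PCDHB5, PCDHB6, PCDHB7, PCDHB8, PCDHB10, PCDHGA1 and PCDHGA7. Among them, PCDHB5, PCDHGA1 and PCDHGA7 had K27ac in A375-GFP, and the others had none there either. The A375-GFP list, the longest, held 11 members (51.8% of all genes), so a missing region was not particular to the hairpin libraries. PCDHA6, PCDHA7, PCDHA9, PCDHB9 and PCDHGC3 were listed in all 4 libraries, and PCDHA5, PCDHB2 and PCDHB16 in shNTC and shH3. The whole lists were shorter as well, covering 36.8 Mb (shH2) and 49.2 Mb (shH3) against 103.4 Mb and 98.4 Mb for the shNTC replicates. With 1 library per hairpin, a smaller library and less acetylation cannot be told apart.

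**Figure D4:**
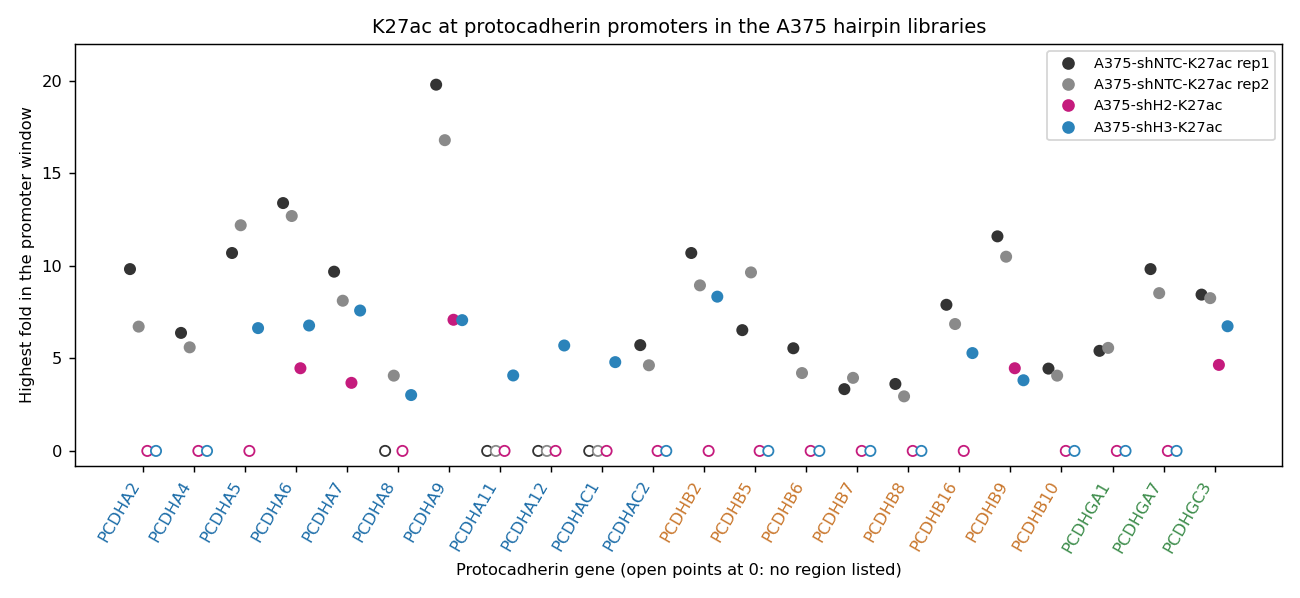
Highest K27ac fold in the promoter window (y axis) of the 22 protocadherin genes with a region in at least 1 of the 4 A375 hairpin libraries (x axis), with shNTC replicates in black and grey, shH2 in magenta and shH3 in blue, and open points at 0 where no region was listed. PCDHA9 has the highest values, 19.8 and 16.8 in shNTC and 7.09 and 7.07 in the hairpin libraries.

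The members without a region in the hairpin libraries were the weaker ones in shNTC. Their folds ran from 3.34 to 9.83 (median 5.63) in replicate 1 and from 2.95 to 9.65 (median 5.10) in replicate 2. Those that kept a region ran from 7.90 to 19.8 (median 10.7) and from 6.86 to 16.8 (median 9.72). These ranges overlapped in both replicates. The same difference held over all genes. The 807 genes in neither hairpin library had median −log10 q values of 7.47 and 6.46 in the replicates, against 27.2 and 24.4 for the 8221 kept. For members the medians were 8.26 and 6.80 against 24.8 and 21.7. In classes of the −log10 q in replicate 1, 6 of 6 members under 10 were in neither hairpin library (34.1% of 1585 genes), 2 of 4 between 10 and 20 (9.10% of 2110) and 2 of 8 at 20 or more (1.39% of 5333). The strong regions that were in neither are few, so that last share rests on 2 promoters.

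Folds belong to their own list and are given side by side. PCDHA9 had 19.8 and 16.8 in the shNTC replicates, 7.09 in shH2 and 7.07 in shH3. PCDHA6 had 13.4 and 12.7, then 4.47 and 6.78. Both hairpin values lay below both replicates at these 2 genes and at the other 3 members listed in all 4 libraries. PCDHB9 had 11.6 and 10.5, then 4.47 and 3.82. PCDHGC3 had 8.45 and 8.26, then 4.65 and 6.74. PCDHA7 had 9.69 and 8.12, then 3.68 and 7.59. At PCDHB2, shH3 (8.34) stood close to the replicates (10.7 and 8.95), while shH2 had no region. The median fold over all genes with a region was 10.2 and 9.51 in shNTC, 6.14 in shH2 and 8.12 in shH3, so lower folds in the hairpin lists were general. In the other direction, 3 of the 12 members with K27ac in a hairpin library were in neither replicate (1.44% of all such genes), namely PCDHA11 (4.08), PCDHA12 (5.70) and PCDHAC1 (4.80), all in shH3. At PCDHAC1 replicate 2 had a region with a fold of 3.23 that began 34 bases beyond the window.

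HOXD13-HA lay at 0 of 53 promoters (2.45% of all genes), and with so low a background a count of 0 is not read as a difference. From 100 kb before the first gene to 100 kb after the last, the list held 5 regions. A pair lay in the shared constant part of the alpha genes, at chr5:141002003-141002718 (fold 2.84) and chr5:141003923-141004569 (fold 3.38), which takes in the part of the locus where an enhancer of the alpha cluster is known. ATAC regions of SKMEL-147 (10.6 and 13.0) and A375-GFP (7.48 and 6.80) and K27ac regions of all 5 A375 lists overlapped both, and no list of 501mel or SKMEL-5 had a region there. At the first, K27ac folds were 6.93 and 6.16 in the shNTC replicates, 4.08 in shH2 and 3.78 in shH3. At the second they were 8.03 and 3.81 in the replicates, 3.64 and 4.47 in 2 regions of shH2 and 6.51 in shH3, which overlaps the range of the replicates. The 3 further HOXD13-HA regions lay at chr5:141072286-141072691 (fold 3.16) in the beta cluster and within DIAPH1 at chr5:141521360-141521557 (3.07) and chr5:141609209-141609944 (8.82). The A375-GFP-HA library, the control for the tag, was not analysed here.

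**Figure D5:**
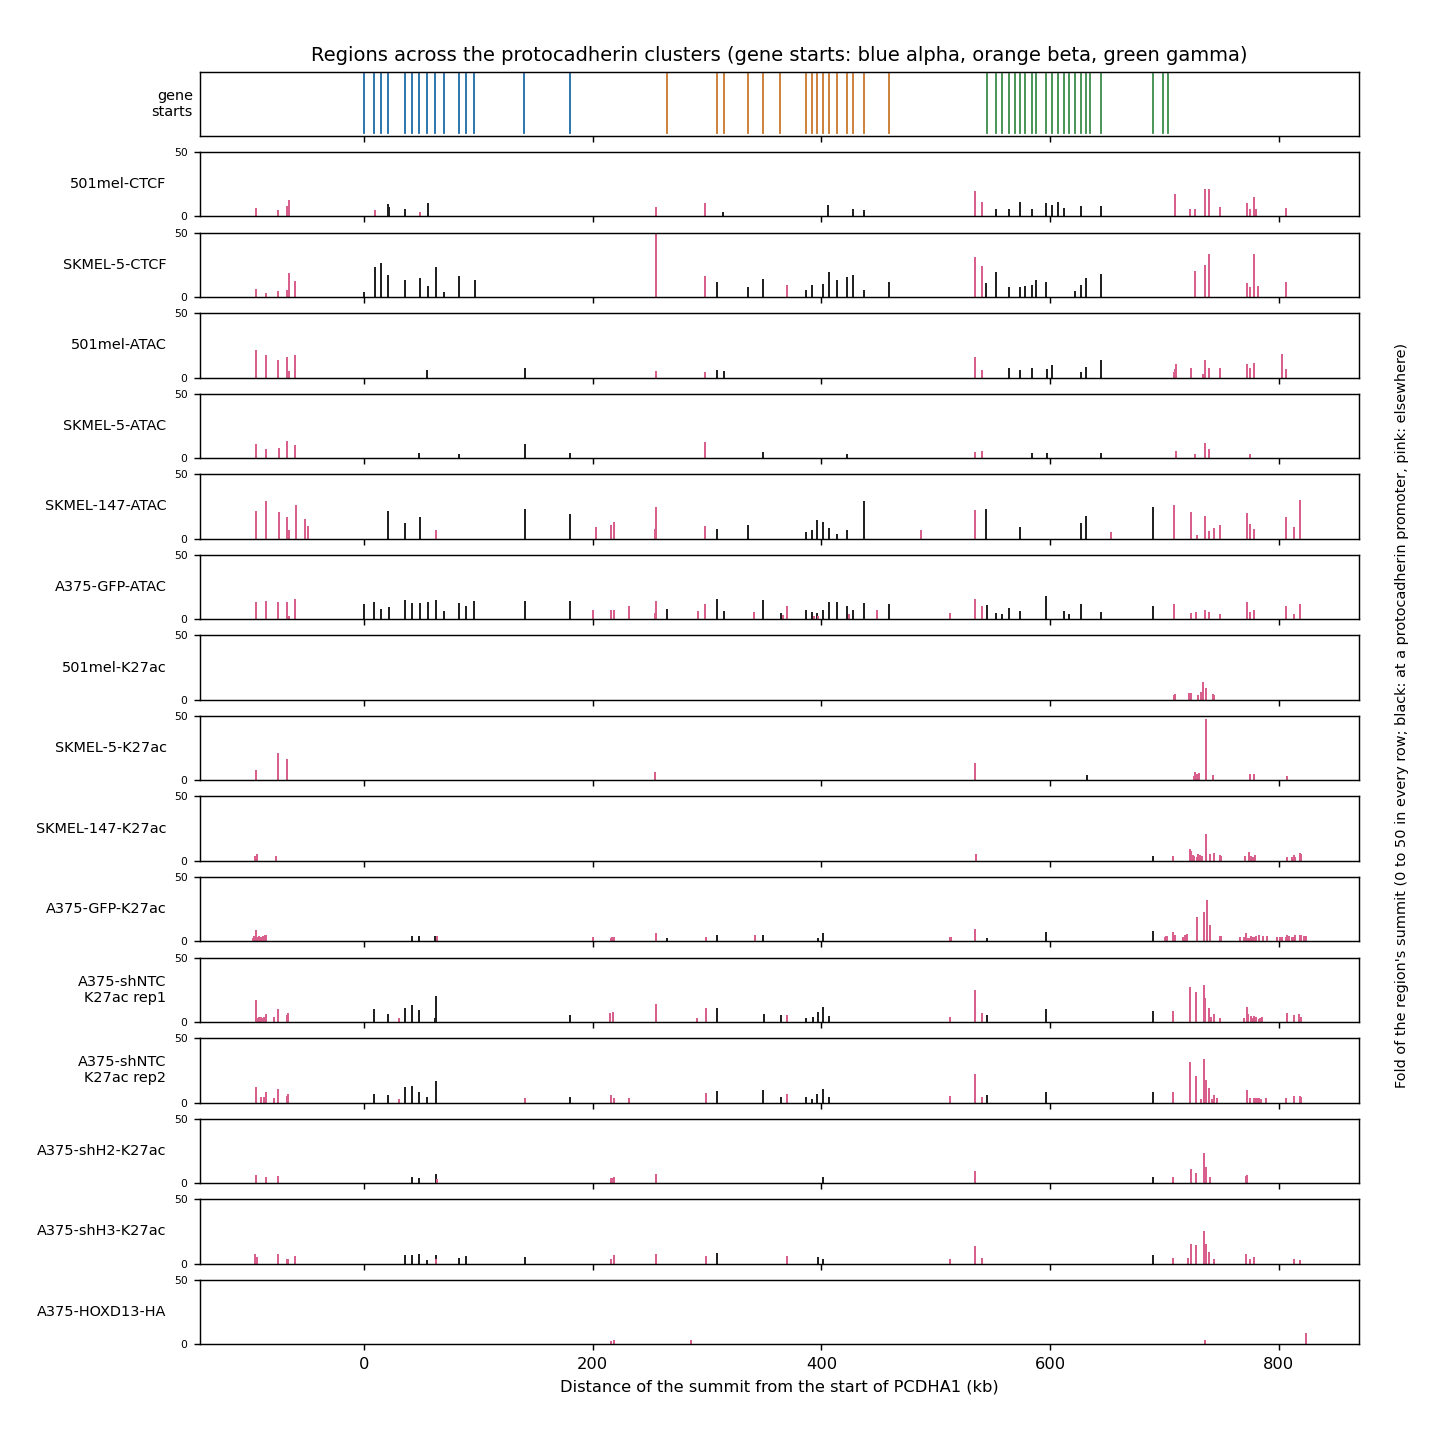
Regions of the 15 lists (rows) by the distance of their summit from the start of PCDHA1 (x axis, kb) and their fold (height, 0 to 50 in every row), in black at a protocadherin promoter and in pink elsewhere, with gene starts on top in blue (alpha), orange (beta) and green (gamma). The strongest SKMEL-5 CTCF region, fold 48.6, stands between the alpha and beta clusters, and K27ac gathers after the last gamma gene in every K27ac list.

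The strongest SKMEL-5 CTCF region of the locus stood between the alpha and beta clusters, at chr5:141039845-141041435, with a fold of 48.6. A strong enhancer of the alpha genes with CTCF sites of its own is known in this gap. In 501mel CTCF lay in the same place with a fold of 6.99 (chr5:141041119-141041342). ATAC folds there were 24.3 in SKMEL-147, 14.4 in A375-GFP and 5.13 in 501mel, and SKMEL-5 had no ATAC region in the gap. SKMEL-5 thus had CTCF but no open region listed at the site, and its ATAC list, with 56333 regions, was the shortest. CTCF was not profiled in SKMEL-147 and A375-GFP. K27ac folds were 6.55 in SKMEL-5, 6.61 in A375-GFP, 14.0 in shNTC replicate 1, 6.76 in shH2 and 7.32 in shH3, with no region in replicate 2, so the replicates disagree at this site. Before PCDHB2, a site at chr5:141084354-141085425 had CTCF in both lines (folds 10.1 in 501mel and 16.4 in SKMEL-5) and ATAC in all 4 lines (4.34 to 12.9).

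Acetylation beyond the last gamma gene, over the end of DIAPH1, was present in every K27ac list, unlike that at the promoters. An enhancer group of the beta and gamma genes is known in this part. The strongest K27ac region within 100 kb after the last gene had a fold of 13.5 in 501mel, 47.9 in SKMEL-5 (chr5:141518598-141524987), 20.9 in SKMEL-147 and 32.5 in A375-GFP. It had 29.0 and 33.5 in the shNTC replicates, 23.5 in shH2 and 25.0 in shH3, both hairpin values being below both replicates. K27ac covered 8.64%, 8.98%, 18.8% and 31.6% of these 100 kb in the 4 lines, 26.7% and 26.8% in shNTC, 9.27% in shH2 and 12.5% in shH3. The alpha cluster itself had no K27ac region in 501mel, SKMEL-5 or SKMEL-147. Among the places there with CTCF in both lines were chr5:141520996-141522006 (21.4 in 501mel, with 25.1 at the same place in SKMEL-5) and chr5:141524597-141525382 (21.6, with 33.7 in SKMEL-5), and ATAC at both in all 4 lines.

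Lists of related genes were set beside the members. Over all genes, CTCF lay at 31.7% and 37.0% (501mel and SKMEL-5). ATAC lay at 66.3%, 59.6%, 72.4% and 73.9% in 501mel, SKMEL-5, SKMEL-147 and A375-GFP, and K27ac at 17.4%, 47.0%, 15.0% and 51.8%. In the hairpin libraries K27ac lay at 59.4% and 58.0% (shNTC), 41.4% (shH2) and 53.1% (shH3) of all genes. HOXD13-HA lay at 2.45%. Of 10 other, unclustered protocadherins with a known start, 1 and 3 had CTCF (501mel and SKMEL-5), 3, 5, 6 and 7 were open in 501mel, SKMEL-5, SKMEL-147 and A375-GFP, and 0, 2, 0 and 4 had K27ac. PCDH9 was open in all 4 lines. They had K27ac at 6 and 3 promoters in the shNTC replicates, 1 in shH2 and 3 in shH3, and HOXD13-HA at 0. Of 16 regulators of the clusters with a known start, among them the cohesin subunit SMC3 and the chromatin silencers SMCHD1 and SETDB1, 14 or 15 were open in each line. K27ac lay at 4, 15, 7 and 14 of them in the same 4 lines, at 15 in each shNTC replicate and at 14 in each hairpin library, CTCF at 6 in 501mel and 10 in SKMEL-5, and HOXD13-HA at 1.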

How the data were processed

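Region lists of 15 libraries were used, 1 per group except for the 2 shNTC replicates. The submitters' processing notes name MACS2, Bowtie2, Trim Galore, deepTools and SAMtools, and the build hg38; versions, settings and control libraries are not given in the sources used here, nor which libraries were ChIP-seq or CUT&Tag. The deposited score is 10 times the −log10 q without its decimals, as the values show. The fold (a ratio of the summit to the background) and the −log10 p and −log10 q were computed by the authors' caller. The lowest −log10 q was 1.30 to 1.34. Regions on chromosomes 1 to 22 and X were kept. In 5 lists there were further regions on alternative chromosome 5 sequences (A375-GFP ATAC and the shNTC, shH2 and shH3 lists), so the lists were not all made alike; whether those sequences cover the clusters was not tested.

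Gene starts and sequences came from RefSeq tables of GRCh38.p14. No genome or protein sequence was used here. The 6 members without an entry (PCDHA3, PCDHA13, PCDHB6, PCDHB11, PCDHGA12 and PCDHGC5) took their lower gene end as start, a departure from the plan, which had both ends. The background is the 15818 genes with an entry or membership; 4156 others were not used, and with both ends for these the backgrounds moved by −3.00 to 0.182 percentage points. Overlaps were checked on simulated regions (Python 3.11.15, pandas 2.3.3, numpy 2.4.6). The members, lists and rules were chosen with earlier results of these data known. Named were members with CTCF in 1 line, the 5 highest CTCF folds per line, up to 10 per A375 list by fold, members open or acetylated in 3 lines or more, the C-type genes and PCDHB1; where a count is small its other members are named too. Alternatives changed the window, the rule for overlap, the strength, the list length, the shNTC replicate, the missing starts and the background.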

Additional observations from a re-analysis of the deposited data

How the results depend on the processing

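Windows of 250 bases before to 50 after and of 1000 bases to either side of the start, summits in place of overlap, a −log10 q of at least 10 and lists held to equal length were tried. With a −log10 q of at least 10, members with CTCF in 501mel numbered 7 in place of 17, members acetylated in at least 1 line 4 in place of 12, those in both shNTC replicates 11 in place of 18, and those of them in neither hairpin library 5 in place of 10. The narrow window gave 7, 11 and 6 for the last 3. Lists of equal length gave 5 members acetylated in at least 1 line and 5 in both replicates and neither hairpin library. By construction these settings hold fewer regions or bases. The CTCF count of 1 line alone stayed between 22 and 26, that in SKMEL-5 between 29 and 36, and open members between 33 and 46. Without 1 shNTC replicate the counts were 18 to 19 for shNTC and 10 to 10 for the loss in both hairpins. Both ends for the 6 members without a start, which was the planned rule, moved none of these counts by over 1.5 times. With that rule K27ac in SKMEL-5 alone went from 1 to 3. Counts by line moved with list length: held to 56333 ATAC regions each, 501mel had 3 open members, SKMEL-5 9, SKMEL-147 6 and A375-GFP 29. The share of all genes at that length is not given. HOXD13-HA stayed at 0. Lists of equal length could not be run for HOXD13-HA, of which there is 1 list. Unknown depth limits every missing region. No paired analysis was possible because the labels number only the shNTC libraries and each group compared with them holds 1 library.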

Other observations

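The vault RNA genes before the alpha cluster, a small non-coding RNA family, had regions that the members' counts leave out. A site over VTRNA1-2 (chr5:140718297-140721108) was listed in 10 of the 15 lists, with CTCF in both lines and ATAC in all 4, and one over VTRNA1-1 (chr5:140709734-140712248) in 11. The strongest K27ac region of SKMEL-5 before the alpha cluster lay at VTRNA1-1 (chr5:140710220-140712248), with a fold of 21.0. PCDHB17P, a pseudogene in the beta cluster, carried a site at chr5:141155648-141156616 in 5 lists, with CTCF in SKMEL-5, ATAC in A375-GFP and K27ac in both shNTC replicates and shH3.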
